A study of Mus musculus with 12 samples.

Results

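The respiratory chain was examined in 12 bulk RNA-seq libraries of mouse microglia as 103 protein-coding genes, out of 55421 genes in the count table. Members were chosen by symbol (Nduf, Sdha to Sdhd, Uqcr, Cox4 to Cox8, Atp5, and the mitochondrial genes mt-Nd, mt-Co, mt-Cytb and mt-Atp) and had to reach 10 counts in at least 3 libraries. Of 107 protein-coding genes with such a symbol, 4 stayed under that minimum, namely Cox7b2, Cox8b, Cox8c and Ndufa4l2. The nuclear genome holds 90 of the 103 members, which are 36 complex I subunits, 8 complex I assembly factors, the 4 subunits of complex II, 8 of complex III, 16 of complex IV and 18 of complex V. The mitochondrial genome holds the other 13. All 103 also passed the low-count filter of the fit.

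Microglia, the resident macrophages of the brain, were sorted from mice labelled male and P35-P40 (P30 to P45 in the extraction protocol), put into culture and deprived of oxygen and glucose (OGD), which models ischaemia in a dish. OGD lasted 6 h and was followed by 24 h of recovery in 2 of the 4 groups, each with 3 libraries. Control cells carried the Cx3cr1EGFP reporter (here WT), and knockout cells (KO) had the genotype Slc2a5-/-::Cx3cr1EGFP, lacking the fructose transporter GLUT5. Every library had thus been through OGD and came from reporter mice, and no sample without OGD was analysed here. The treatment field of WT-recovery replicate 1 names OGD without recovery, while its title places it after recovery. The title decided its group. The labels do not tell whether the replicates were separate mice or separate dishes. The p-values therefore reflect the spread of these 12 samples alone, and that spread may be technical.

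Electrons from NADH enter the chain at complex I and those from succinate at complex II, pass through ubiquinone to complex III and through cytochrome c to complex IV, which reduces oxygen, and complex V makes ATP from the proton gradient that complexes I, III and IV build. Complexes I, III, IV and V each need subunits from both genomes, whereas complex II is wholly nuclear. Macrophages and microglia are known to shift between oxidative phosphorylation and glycolysis with oxygen supply and activation.

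Several facts of the libraries bear on the values below. Total counts were 31509859 to 45347118 in the OGD groups and 9885259 to 19915479 in the recovery groups. Slc2a5 (in CPM, the count scaled to a common library size after TMM scaling) was 1.10 to 1.21 in WT-OGD, 0.131 to 0.465 in KO-OGD and at most 0.122 in any recovery library, so it checked the genotype labels after OGD and was too low to do so after recovery. The macrophage and microglial gene Csf1r (647 to 996 CPM) was abundant throughout, while the microglial markers Tmem119 (at most 2.74 CPM) and Siglech (at most 0.0986 CPM) were near 0. Although all samples are labelled male, Xist was 151 to 354 CPM in the WT-OGD, KO-OGD and KO-recovery libraries and at most 0.183 CPM in WT-recovery (a log2 fold change of -10.90 from OGD to recovery in WT). Neither genotype after recovery nor recovery in WT, nor their interaction, can therefore be told apart from this difference. In KO the change of Xist was 0.48. Summed skeletal muscle markers reached 106 and 116 CPM in KO-recovery replicates 1 and 3, against 1.81 to 7.59 CPM in the other 10 libraries. Summed astrocyte markers were 54.4 to 75.1 CPM in KO-OGD against 127 to 182 CPM in WT-OGD, and 80.6 to 120 CPM in KO-recovery against 166 to 190 CPM in WT-recovery. Summed cartilage and connective tissue markers reached 181 and 150 CPM in the same KO-recovery replicates 1 and 3, against 9.23 to 63.5 CPM in the others. Markers of several cell types were higher after recovery in both genotypes. The summed level went from 19.4 to 30.7 CPM after OGD to 376 to 859 CPM after recovery for neutrophils, from 10.2 to 17.6 to 63.0 to 100 CPM for monocytes, from 8.65 to 12.1 to 64.6 to 132 CPM for endothelial and mural cells, and from 44.6 to 59.1 to 110 to 209 CPM for the oligodendrocyte lineage. It went from 738 to 834 to 826 to 1312 CPM for border macrophages and from 2947 to 3528 to 3925 to 5772 CPM for microglia. Some of these sums also parted the genotypes after recovery. Neutrophil markers were 376 to 523 CPM in WT-recovery against 683 to 859 CPM in KO-recovery, and endothelial and mural markers 64.6 to 81.6 against 119 to 132 CPM. Border macrophage markers were 826 to 1161 against 1182 to 1312 CPM. Oligodendrocyte lineage markers were lower in KO, at 159 to 209 against 110 to 135 CPM. Monocyte and microglia sums overlapped. Summed neuronal markers were 22.5 to 34.9 CPM in WT-OGD against 7.16 to 13.1 CPM in KO-OGD, and 75.7 to 91.2 CPM in WT-recovery against 15.7 to 25.8 CPM in KO-recovery. The part of these in the results below was not tested. In bulk samples, fewer cells of a type and less RNA per cell cannot be told apart.

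The 13 mitochondrial genes fell into a group of 7 with high levels and a group of 6 with low ones, and their sequences bear on how far each can be read. All 50-base stretches of each gene were compared with all annotated transcripts. Neighbouring nuclear copies on chromosome 1 (GRCm38) carried nearly the whole of mt-Co2, mt-Co3, mt-Atp6, mt-Nd3 and mt-Nd4l. The first 90 bases of mt-Co2 (chrM:7013-7102, plus strand, subunit 2 of complex IV) and of its copy Gm28661 (chr1:24615476-24615565, minus strand) are shown because they cannot be separated by any read inside them, and those of mt-Nd3 (chrM:9459-9548, plus strand, complex I) and Gm28438 (chr1:24613030-24613119, minus strand) because they hold the sole difference of that pair, given in capitals.
mt-Co2: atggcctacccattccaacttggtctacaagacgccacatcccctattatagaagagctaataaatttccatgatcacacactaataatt
Gm28661: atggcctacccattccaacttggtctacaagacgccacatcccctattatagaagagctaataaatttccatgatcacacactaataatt
mt-Nd3: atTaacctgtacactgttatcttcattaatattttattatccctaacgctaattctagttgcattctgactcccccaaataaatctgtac
Gm28438: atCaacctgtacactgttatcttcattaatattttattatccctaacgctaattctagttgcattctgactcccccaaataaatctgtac
Counted from 1 at the first base of the gene, the difference between mt-Nd3 and its copy was T3C. Over the whole aligned length, mt-Co2 and Gm28661 were identical at 681 of 681 bases, mt-Atp6 and Gm10925 at 678 of 678, mt-Co3 and Gm28437 at 783 of 783, and mt-Nd4l and Gm10222 at 294 of 294. The sixth low gene, mt-Atp8, shared no 50-base stretch with an annotated transcript and lies between mt-Co2 and mt-Atp6. Among the 7 high genes, mt-Nd4 was identical to Gm28439 over its first 876 bases, the last 492 bases of mt-Co1 differed from Gm29216 at 6, and the remaining 5 shared at most 8.19% of their 50-base stretches with another transcript.

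The levels of the high and the low genes, which define these groups, lay far apart. Per kilobase of exon, the 7 high genes lay between 2499 ± 377 (mt-Nd4) and 13799 ± 836 CPM (mt-Co1) in WT-OGD (SD, n = 3), and the 6 low genes between 10.4 ± 1.01 (mt-Nd3) and 97.0 ± 16 CPM (mt-Atp8). In raw counts, mt-Co2 had 891 to 3637 per library and Gm28661 641 to 2192, whereas mt-Co1, transcribed from the same strand, had 391726 to 967511. The ratio of mt-Co2 to Gm28661 counts was 1.35 to 1.51 over the 6 OGD libraries, 1.05 to 1.11 for WT-recovery and 1.55 to 1.67 for KO-recovery. How reads that match several places were counted is not given in the sources used here, and its part in the low counts of the 6 genes and in their changes was not tested. Their values are therefore reported as uncertain.

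Nuclear subunits lay far below the 7 high mitochondrial genes per length, and the most abundant of them lay above the 6 low ones. Leaving aside the uncertain Atp5o readthrough gene, the most abundant in WT-OGD per kilobase were Cox4i1 (233 ± 7.13 CPM), Cox8a (215 ± 5.84 CPM), Cox6a1 (155 ± 14.1 CPM) and Cox6b1 (150 ± 7.36 CPM) of complex IV, and Atp5b and Atp5a1 (each 138 CPM, SD 1.89 and 2.38), the beta and alpha subunits of the catalytic head of complex V. The WT-OGD libraries of Cox4i1 all lay above those of Cox8a, whereas those of Cox6a1 and Cox6b1 overlapped. The least abundant members were Cox4i2 (0.679 ± 0.214 CPM per kilobase) and Cox7a1 (1.44 ± 0.174 CPM per kilobase), isoforms of complex IV known from hypoxic lung and from muscle.

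**Figure D1:**
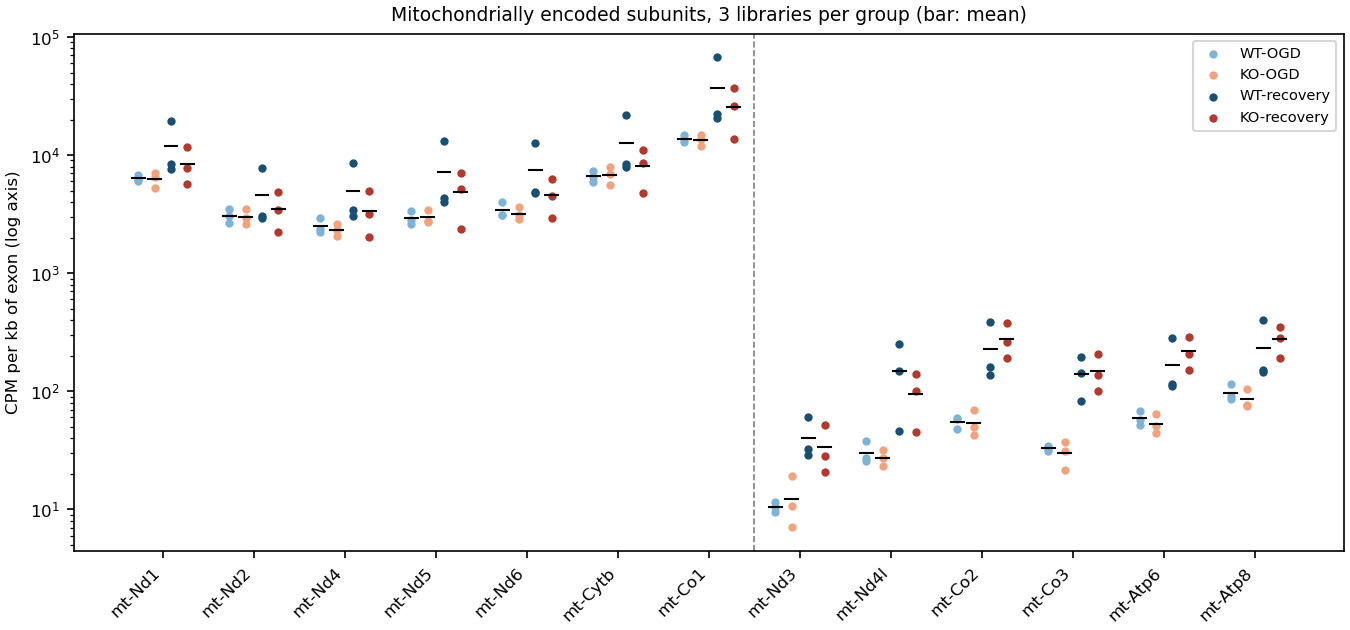
Level of the 13 mitochondrially encoded subunits in CPM per kilobase of exon (log axis), with 1 point per library, 3 libraries per group and a bar at the mean. The 6 genes right of the dashed line, which include the 5 with a near-identical nuclear copy, lie below the other 7 in every group.

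Recovery against OGD asks what 24 h of recovery changed in the chain. In WT, where it cannot be told apart from the Xist difference given above, 62 of the 103 members rose and 8 fell (edgeR quasi-likelihood test, Benjamini-Hochberg adjusted p below 0.05 over 18842 genes), where 26.9% of all genes tested rose and 29.9% fell (56.8% in either direction). Groups did not overlap in 67 members higher and 10 lower, against 31.6% and 35.5% of all genes, and an unadjusted p below 0.05 was reached by 75 members, against 61.3% of all genes. The rise was spread over all complexes. It took in 23 of 36 complex I subunits (3 fell), 2 of 8 complex I assembly factors (1 fell), 3 of 4 complex II subunits, 4 of 8 of complex III (1 fell), 9 of 16 of complex IV (3 fell), 13 of 18 of complex V, and 8 of the 13 mitochondrial genes. The median log2 fold change was 0.40 over the nuclear members and 1.30 over the mitochondrial ones, against -0.03 over all genes tested. In KO, 45 members rose and 14 fell, where 29.3% and 29.6% of all genes did (59.0% in either direction), and the medians were 0.15 for the nuclear and 0.92 for the mitochondrial members, against 0.00 over all genes. Groups did not overlap in 43 members higher and 15 lower, against 29.9% and 31.3% of all genes, and 62 members reached an unadjusted p below 0.05, against 63.2% of all genes. The KO counts were 16 higher and 7 lower in complex I, 3 and 1 among its assembly factors, 2 and 0 in complex II, 2 and 1 in complex III, 5 and 4 in complex IV, and 11 and 1 in complex V. The 2 recovery contrasts share no library. Over the 103 members, 41 rose in both genotypes, 8 fell in both, and 1, Cox7a2l, was called in opposite directions. These are 39.8%, 7.77% and 0.971% of the members, where 20.6% of all genes tested rose in both, 23.3% fell in both and 0.488% were called in opposite directions.

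**Figure D2:**
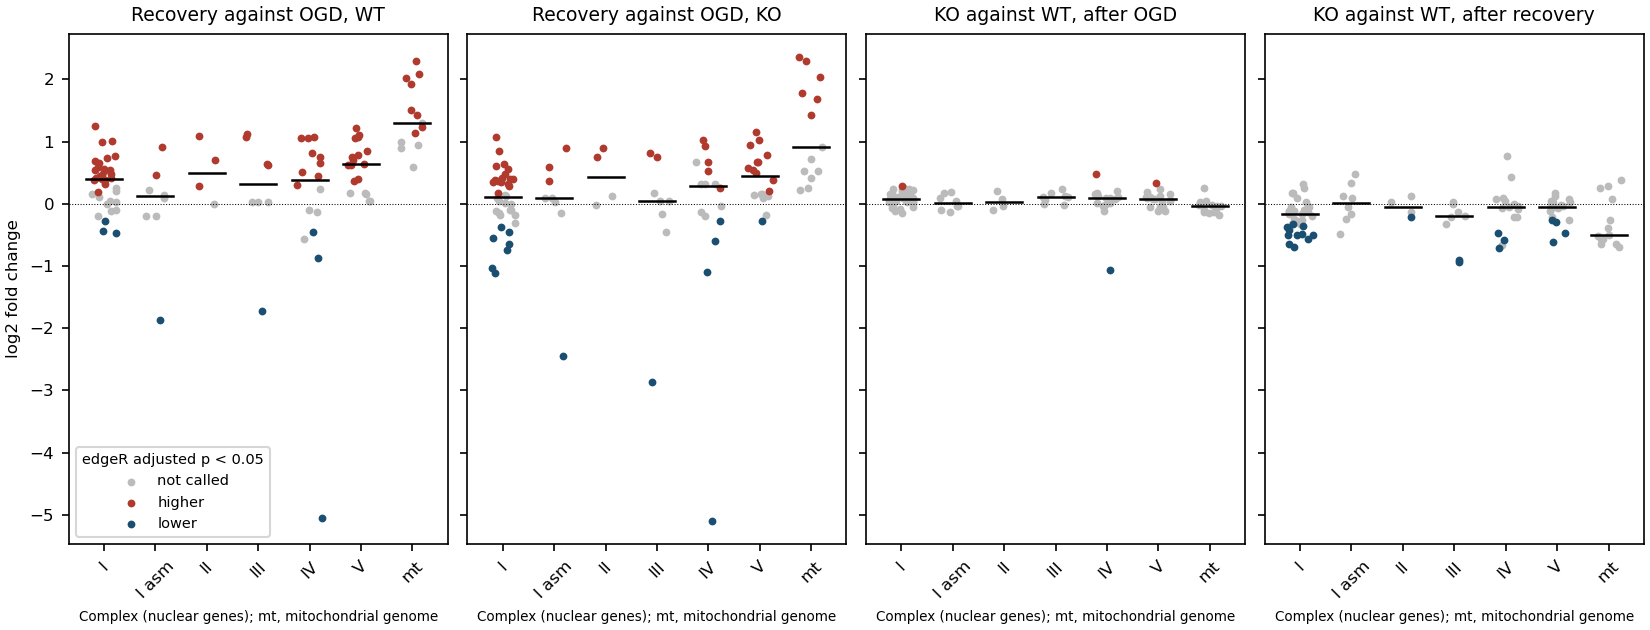
Log2 fold change of each of the 103 members in 4 comparisons, grouped by complex (I asm, complex I assembly factors; mt, the 13 mitochondrial genes), with a line at each group's median. Members called higher by edgeR are red and those called lower are blue. The recovery panels lie mostly above 0 with a few deep falls, and called members after recovery in KO against WT are all lower.

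In complex II, both membrane anchors rose in both genotypes, and the catalytic flavoprotein was not called in either. Sdhd, a membrane anchor that binds ubiquinone, measured 101, 93.5 and 95.8 CPM in WT-OGD and 95.2, 92.3 and 96.8 CPM in KO-OGD. After recovery it measured 195, 213 and 208 CPM in WT and 172, 171 and 188 CPM in KO. Every recovery library lay above every OGD library, with a log2 fold change of 1.09 ± 0.07 (SE, edgeR adjusted p = 1.37e-08) in WT and 0.90 ± 0.07 (edgeR adjusted p = 7.30e-08) in KO. The other anchor, Sdhc, rose by 0.70 ± 0.07 in WT and 0.75 ± 0.07 in KO on the log2 scale. Sdha, the flavoprotein that oxidises succinate, stayed at 224 to 276 CPM in all 12 libraries (0.00 ± 0.08 in WT and -0.02 ± 0.08 in KO, not called). The iron-sulfur subunit Sdhb rose in WT (0.28 ± 0.08, edgeR adjusted p = 0.00679), a call lost without the low-count filter (0.23), and was 0.12 ± 0.08 in KO, not called.

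Uqcr10, a small subunit of complex III, measured 35.2, 39.4 and 36.4 CPM in WT-OGD and 41.3, 37.2 and 42.0 CPM in KO-OGD, and 81.1, 76.7 and 83.9 CPM in WT-recovery and 63.7, 80.0 and 69.1 CPM in KO-recovery. The OGD and recovery libraries did not overlap (1.12 ± 0.09 in WT and 0.82 ± 0.09 in KO, both called by edgeR). Uqcrh, the hinge protein of complex III, rose by 1.07 ± 0.10 in WT and 0.75 ± 0.10 in KO. The core proteins Uqcrc1 and Uqcrc2 and the Rieske iron-sulfur protein Uqcrfs1, named here after their values were seen, had log2 fold changes of 0.02, 0.03 and 0.03 in WT and 0.04, 0.05 and -0.17 in KO, with SEs of 0.07 to 0.08 and no call.

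In complex V, Atp5g1, which encodes the proton-carrying ring subunit c, measured 26.2, 25.2 and 25 CPM in WT-OGD and 27.2, 25.6 and 26.2 CPM in KO-OGD. After recovery it measured 64.7, 52.9 and 59.2 CPM in WT and 55.5, 61.3 and 58.5 CPM in KO. This was a rise of 1.21 ± 0.08 (edgeR adjusted p = 1.69e-08) in WT and 1.15 ± 0.08 (edgeR adjusted p = 2.09e-08) in KO. Of the other genes for the same ring protein, Atp5g3 rose by 0.70 ± 0.10 and 0.57 ± 0.10, and Atp5g2 was 0.16 ± 0.09 in WT and -0.18 ± 0.09 in KO, not called. Atp5g1 thereby made up 15.2% to 17.7% of the summed CPM of the 3 ring genes in the OGD libraries and 19.8% to 27.3% after recovery. Parts of Atp5g1 (11.1% of its 50-base stretches) also occur in another annotated transcript. Atp5j2 (subunit f) rose by 1.06 ± 0.08 and 1.02 ± 0.08. Atp5b, the catalytic beta subunit, also named after its values were seen, was 0.05 ± 0.08 in WT and 0.14 ± 0.08 in KO, not called. The 2 Atp5o genes, which overlap each other and in part Donson, rose in both genotypes, and their split is uncertain.

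Among the nuclear subunits of complex I, the accessory subunits Ndufa11, Ndufa3 and Ndufa5 had the largest called rises in WT. Ndufa11 measured 23.0, 24.7 and 25 CPM in WT-OGD and 66.6, 51.1 and 55.6 CPM in WT-recovery, and 30.9, 26 and 28.6 CPM in KO-OGD and 48, 57.9 and 48.8 CPM in KO-recovery. Its groups did not overlap (1.25 ± 0.11 in WT and 0.85 ± 0.11 in KO, both called by edgeR). It overlaps Vmac on the opposite strand by 70 bases of exon, and strand use in counting is not given in the sources used here. Ndufa3 rose by 1.01 ± 0.10 and 0.61 ± 0.10, and Ndufa5 by 0.99 ± 0.13 and 1.08 ± 0.12. Ndufa12, another accessory subunit, named after its values were seen, rose in KO (0.64 ± 0.20, edgeR adjusted p = 0.0168) and was 0.21 ± 0.21 in WT, not called. Of the 7 nuclear core subunits, which bind the flavin and iron-sulfur clusters, 4 rose in WT, led by Ndufv2 (0.74 ± 0.08). The core subunits Ndufs1 (0.05 ± 0.09 in WT, 0.09 ± 0.09 in KO) and Ndufv1 (-0.11 ± 0.07 in WT, 0.01 ± 0.07 in KO), chosen after their values were seen, were not called.

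Coding length was set beside these changes as a description across genes. Over the 90 nuclear members, Spearman's rho between coding length and the recovery change was -0.26 in WT and 0.01 in KO, against -0.13 and -0.02 over 14155 genes tested with a coding transcript. The 47 nuclear members with under 450 coding bases had a median change of 0.56 in WT and the 43 longer ones 0.32. Among all genes, the 1000 short ones had a median of 0.27 and the 13155 longer ones -0.03. In KO both classes of members had a median of 0.15. Genes of like length share library and depth, and their points are not independent.

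Of the 103 members, 8 fell in both genotypes. Cox6a2, the isoform of complex IV subunit VIa known from heart and skeletal muscle, measured 10.7, 13.1 and 12.7 CPM in WT-OGD and 18, 14.9 and 18 CPM in KO-OGD, and between 0.305 and 0.572 CPM in all 6 recovery libraries. The change was -5.05 ± 0.21 (edgeR adjusted p = 1.49e-10) in WT and -5.10 ± 0.19 (edgeR adjusted p = 1.96e-11) in KO. The ubiquitous isoform Cox6a1 was -0.14 ± 0.16 and -0.20 ± 0.16, not called, so that Cox6a2 went from 9.81% to 15.1% of their summed CPM in the OGD libraries to 0.273% to 0.580% after recovery. Cox6a2 shares 70 bases of exon with Itgad, an integrin gene on the opposite strand. Itgad measured 13.3 to 21.2 CPM in the OGD libraries and 0.794 to 2.29 CPM after recovery, so the genes fell together. Without knowledge of the strand setting their reads cannot be told apart, and the part of Itgad in the Cox6a2 counts was not tested. Acta1 and the other muscle markers were raised in KO-recovery replicates 1 and 3, where Cox6a2 measured 0.446 and 0.482 CPM.

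Uqcrq, a small subunit of complex III, measured 76.4, 72.9 and 84.3 CPM in WT-OGD and 100, 84.9 and 90 CPM in KO-OGD. After recovery it measured 29.5, 26.4 and 15.7 CPM in WT and 10.5, 12.6 and 14.7 CPM in KO. All recovery libraries lay below all OGD libraries, a change of -1.72 ± 0.18 (edgeR adjusted p = 3.39e-06) in WT and -2.87 ± 0.19 (edgeR adjusted p = 3.83e-08) in KO. It overlaps no annotated gene and shares no 50-base stretch. The assembly factor Ndufaf8 fell by 1.87 ± 0.20 in WT and fell by 2.45 ± 0.20 in KO, from 6.27 to 7.62 CPM to 1.14 to 2.26 CPM. Cox8a, a small subunit of complex IV, measured 130 to 151 CPM after OGD and 59.1 to 87.4 CPM after recovery (-0.88 ± 0.13 and -1.09 ± 0.13, both called by edgeR). Cox5b, which binds zinc in complex IV, fell by 0.46 ± 0.11 in WT and fell by 0.60 ± 0.10 in KO, with 11.9% of its stretches shared with another transcript. Also lower in both genotypes were Ndufc2, Ndufb2 and Ndufa6 of complex I. The WT call of Ndufc2 was lost in 11 of 21 alternatives, and that of Ndufa6 without WT-OGD replicate 2.

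**Figure D3:**
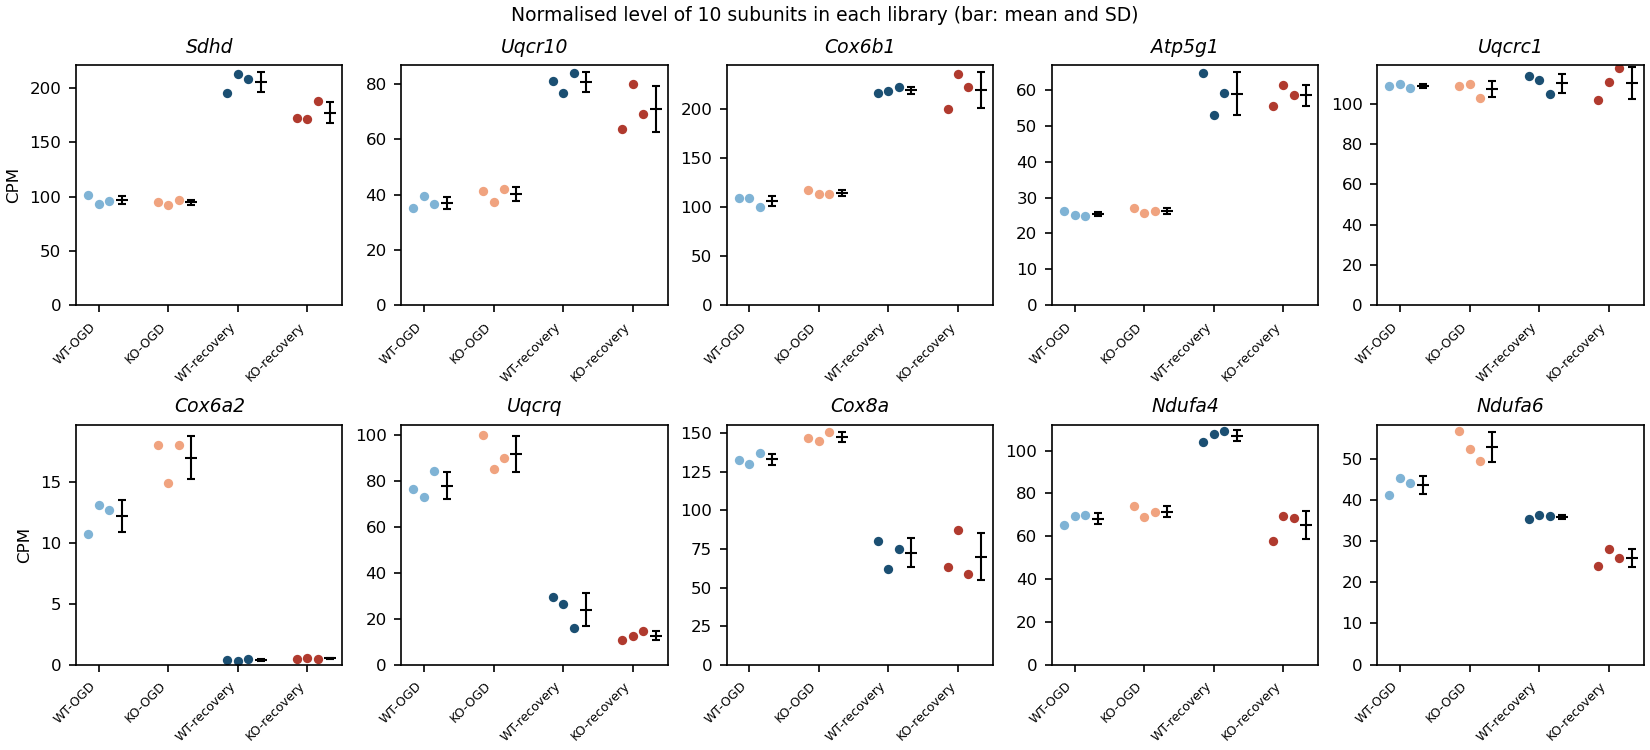
Normalised level (CPM) of 10 nuclear subunits in each of the 12 libraries, with the mean and SD of 3 libraries per group beside the points. Sdhd, Uqcr10, Cox6b1 and Atp5g1 lie higher in every recovery library, Uqcrc1 stays level, and Cox6a2, Uqcrq and Cox8a lie lower.

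In complex IV, Cox6b1 rose by 1.05 ± 0.08 and 0.93 ± 0.08, Cox7b by 1.07 ± 0.09 and 1.02 ± 0.09, Cox7a2 by 0.81 ± 0.09 and 0.67 ± 0.09, and Cox6c by 0.75 ± 0.08 and 0.53 ± 0.08. Cox4i1, the ubiquitous isoform of subunit IV, rose by 0.45 ± 0.10 in WT and 0.25 ± 0.10 in KO, the KO call being lost in 10 of 21 alternatives. Its hypoxia-linked counterpart Cox4i2 stayed at 0.244 to 0.744 CPM in all 12 libraries, with no call in any comparison. The muscle isoform Cox7a1 was 0.602 to 2.44 CPM, and its WT rise (1.06 ± 0.34, edgeR adjusted p = 0.0144) fell to 0.52 and was not called without WT-recovery replicate 2. AA467197, whose protein is a paralogue of Ndufa4 known to be induced in inflamed cells, rose from 1.81 to 4.36 CPM to 10.3 to 16.4 CPM (1.95 ± 0.23 in WT and 1.89 ± 0.23 in KO, both called by edgeR).

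Summed over the nuclear members, the WT-OGD libraries held 5744, 5822 and 5861 CPM and the KO-OGD libraries 6219, 5797 and 6036 CPM. The WT-recovery libraries held 7782, 7665 and 7509 CPM and the KO-recovery libraries 6531, 7448 and 7277 CPM, all above the OGD libraries. By complex, the sums of II (503 to 528 CPM after OGD, 626 to 718 CPM after recovery) and V (2046 to 2110 CPM, 2516 to 2807 CPM) did not overlap, whereas in I, III and IV the value of KO-recovery replicate 1 (1417, 520 and 1353 CPM) lay within the OGD range. Summed over the 13 mitochondrial genes, the WT-OGD libraries held 48011, 53394 and 44999 CPM and the KO-OGD libraries 48439, 42007 and 54078 CPM. The WT-recovery libraries held 199056, 65687 and 70958 CPM and the KO-recovery libraries 77958, 109589 and 43191 CPM. WT-recovery replicate 1 thus stood far above every other library, and KO-recovery replicate 3 lay among the OGD libraries. The mitochondrial over nuclear ratio was 7.25 to 9.17 after OGD. It was 25.6, 8.57 and 9.45 for the WT-recovery libraries and 11.9, 14.7 and 5.94 for the KO-recovery libraries, so the groups overlapped. Without WT-recovery replicate 1 the mitochondrial median change in WT was 0.62 in place of 1.30.

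**Figure D4:**
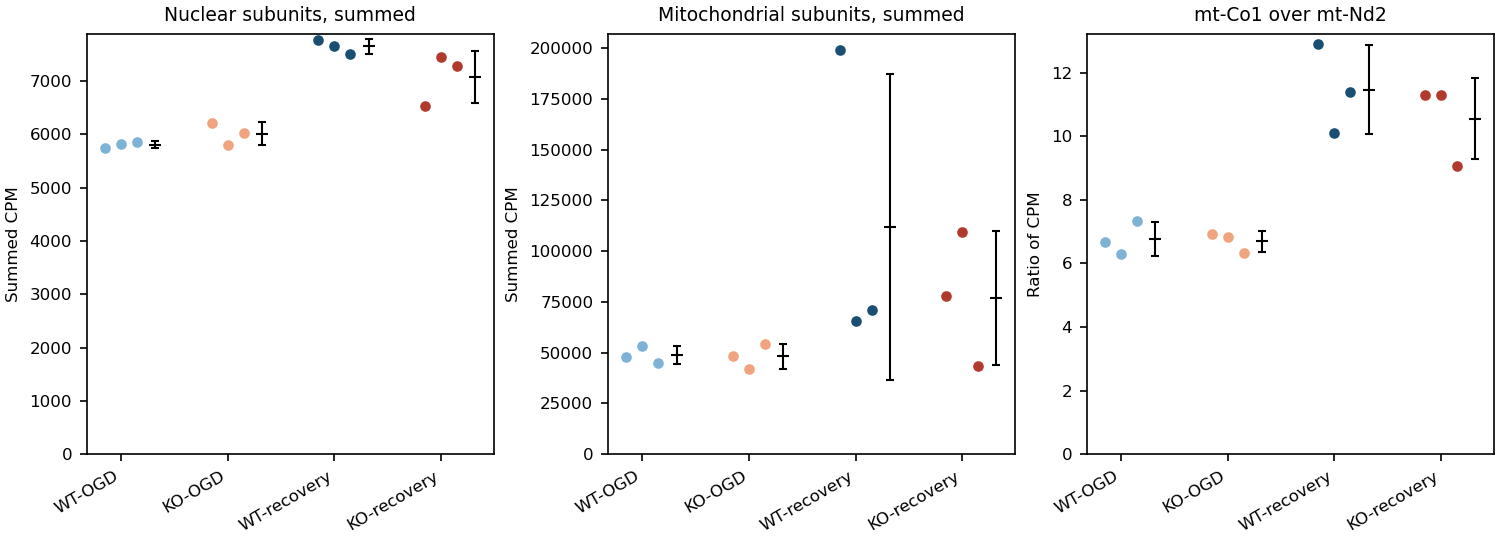
Summed CPM of the nuclear members, summed CPM of the mitochondrial members, and the ratio of mt-Co1 to mt-Nd2 in each library, with the mean and SD of 3 libraries per group. The mitochondrial sum is highest in 1 WT-recovery library (199056), whereas the mt-Co1 to mt-Nd2 ratio is above 9 in all 6 recovery libraries and at most 7.35 in the OGD libraries.

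Of the 7 high mitochondrial genes, mt-Co1 (catalytic subunit 1 of complex IV, 1.42 ± 0.48, edgeR adjusted p = 0.0287) and mt-Nd6 (complex I, the only one of them on the other strand, 1.14 ± 0.39, edgeR adjusted p = 0.0324) were called higher in WT. These calls were lost in 5 and 4 of 21 alternatives, respectively, and without WT-recovery replicate 1 the values were 0.63 and 0.51. The gene mt-Nd6 overlaps mt-Nd5 on the opposite strand by 14 bases. Without knowledge of the strand setting, reads from the opposite strand cannot be told apart from those of mt-Nd6. Their part in its counts was not tested. The other 5 high genes had values of 0.59 (mt-Nd2) to 1.30 (mt-Nd5) in WT and were not called, and in KO all 7 lay between 0.22 and 0.92 with no call. The 6 low genes were called higher in both genotypes, from 1.24 (mt-Atp8) to 2.29 (mt-Nd4l) in WT and from 1.42 (mt-Nd3) to 2.36 (mt-Co2) in KO, with the limit on their counts given above. The summed CPM of the 7 annotated nuclear copies rose with them, from 102 to 183 after OGD to 333 to 972 after recovery.

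Within the mitochondrial signal, the shares of 3 of the 7 high genes separated OGD from recovery where the totals did not. Within the summed CPM of the 7 high genes, mt-Co1 had a share of 44.2%, 42.6% and 44.8% across the WT-OGD libraries and 43.8%, 44.2% and 42.4% across the KO-OGD libraries. After recovery its share was 52.5%, 48.6% and 49.1% for WT and 52.2%, 52.5% and 49.0% for KO. Over the same 4 groups mt-Nd2 (complex I) went from 6.10% to 6.76% after OGD to 4.08% to 5.39% after recovery, and mt-Cytb (cytochrome b of complex III) from 15.1% to 16.7% to 11.5% to 13.8%. The shares are parts of 1 whole, so the falls of mt-Nd2 and mt-Cytb are not separate from the rise of mt-Co1. The ratio of mt-Co1 to mt-Nd2 sets a share that rose over one that fell, so it is not a separate result. It was 6.67, 6.30 and 7.35 for WT-OGD and 6.94, 6.84 and 6.32 for KO-OGD. After recovery it was 12.9, 10.1 and 11.4 for WT and 11.3, 11.3 and 9.08 for KO. For these 3 shares and this ratio, every recovery library lay on the same side of every OGD library, including WT-recovery replicate 1 and KO-recovery replicate 3, whose totals stood apart. The shares of mt-Nd5, mt-Nd6, mt-Nd4 and mt-Nd1 overlapped between OGD and recovery.

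KO against WT after OGD asks what loss of Slc2a5 changes straight after the insult. Few members differed, 3 being higher and 1 lower, where 0.966% of all genes were higher and 6.52% lower (7.49% in either direction). An unadjusted p below 0.05 was reached by 10 members, against 18% of all genes. Groups did not overlap in 16 members higher and 5 lower, against 13.2% and 17.2% of all genes. Ndufa6, an accessory subunit of complex I, measured 56.8, 52.4 and 49.6 CPM in KO and 41.2, 45.4 and 44.3 CPM in WT (0.28 ± 0.08, edgeR adjusted p = 0.0434). Cox6a2 measured higher by 0.48 ± 0.12 (edgeR adjusted p = 0.0202), where Itgad was 0.45 ± 0.15 and not called. Atp5o was higher by 0.34 ± 0.09 (edgeR adjusted p = 0.0310). Cox6b2, the testis isoform of subunit VIb, measured 1.37, 0.821 and 1.56 CPM in KO and 1.90, 2.57 and 3.43 CPM in WT (-1.06 ± 0.27, edgeR adjusted p = 0.0240). Each of these calls was lost in 4 to 9 of 21 alternatives, and leaving out WT-OGD replicate 1, WT-OGD replicate 3 or KO-OGD replicate 1 left no member higher. The median over nuclear members was 0.08 and over mitochondrial members -0.04, against -0.01 over all genes.

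KO against WT after recovery asks the same 24 h later. No member was called higher (10.1% of all genes were) and 21 were called lower (12% of all genes, and 22.2% in either direction), all of them nuclear. The lower members were 11 of 36 complex I subunits, 1 of 4 of complex II, 2 of 8 of complex III, 3 of 16 of complex IV, 4 of 18 of complex V and none of the 8 assembly factors or 13 mitochondrial genes. Groups did not overlap in 6 members higher and 24 lower, against 16.4% and 17.2% of all genes. At an unadjusted p below 0.05, 33 members differed in either direction, where 35.4% of all genes did, and none of these was mitochondrial. The share of members lower was 20.4%. The 47 nuclear members with under 450 coding bases had a median of -0.19 and the 43 longer ones -0.06. Among all genes, the 1000 short ones had a median of -0.15 and the 13155 longer ones 0.01. Spearman's rho with coding length was 0.32 over the 90 nuclear members and 0.14 over 14155 genes. The part of coding length in the lower calls was not tested. Leaving out KO-recovery replicates 1 and 3, the libraries with muscle transcripts, gave 12 lower and 4 higher, but this leaves 1 KO-recovery library, whose spread is assumed to be like that of the other groups, so these counts say little on how stable the calls are. Without KO-recovery replicate 1 alone 9 were lower, and without WT-recovery replicate 2 alone 12 were.

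The smallest p-value was that of Ndufa4, a complex IV subunit that bears a complex I name. It measured 104, 108 and 109 CPM in WT-recovery and 57.9, 69.5 and 68.5 CPM in KO-recovery, with 65.3 to 74.1 CPM in all 6 OGD libraries. The KO-recovery libraries thus lay near the OGD level and all WT-recovery libraries above it (-0.71 ± 0.08, edgeR adjusted p = 3.28e-05). Cox5a, a subunit on the matrix side of complex IV, measured 137, 163 and 147 CPM in WT-recovery and 86.4, 92.1 and 120 CPM in KO-recovery (-0.59 ± 0.11, edgeR adjusted p = 0.00186). Cox5a overlaps Gm26631 on the opposite strand by 269 bases. Cox7a2l, a factor for supercomplexes of III and IV, measured 135, 115 and 125 CPM against 86.1, 98.1 and 87.6 CPM (-0.47 ± 0.09, edgeR adjusted p = 0.00203). In the fit with KO-recovery replicate 2 as the lone library of its group, its value was -0.35 and not called.

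In complex III, Uqcr11 measured 43.6, 41.6 and 23.2 CPM in WT-recovery and 13.9, 20.7 and 22.1 CPM in KO-recovery (-0.94 ± 0.23, edgeR adjusted p = 0.0109). WT-recovery replicate 3 lay near the KO libraries. Uqcrq differed by -0.91 ± 0.19 (edgeR adjusted p = 0.00518), its groups not overlapping. In complex I, Ndufa6 was 35.4, 36.4 and 36.2 CPM against 23.9, 28.1 and 25.9 CPM (-0.48 ± 0.09, edgeR adjusted p = 0.00123), opposite in sign to its value after OGD. Ndufb7 (-0.64 ± 0.14), Ndufc2 (-0.69 ± 0.19), Ndufb5 (-0.51 ± 0.10) and the core subunit Ndufv2 (-0.32 ± 0.08) were also lower, as were Atp5mpl (-0.62 ± 0.17), Atp5e (-0.47 ± 0.13) and Atp5f1 (-0.29 ± 0.08) of complex V. The lower call of Sdhd (-0.22 ± 0.07, edgeR adjusted p = 0.0465) was lost in 17 of 21 alternatives. Of the 21 calls, 6 were kept in all 21 alternatives, namely Cox5a, Ndufa4, Ndufa6, Ndufb10, Ndufb5 and Ndufb7. Ndufb5 overlaps Mrpl47 on the opposite strand by 616 bases of exon. Atp5f1 overlaps Wdr77 and Gm42890, also on the opposite strand, by 540 bases.

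The mitochondrial genes gave no call in this comparison, and their direction rested on 1 library. Their median was -0.51, and 0.22 without WT-recovery replicate 1. With KO-recovery replicate 2 alone in its group it was 0.01, and the nuclear median was -0.02 in place of -0.12, values of 1 library against 3. Spread of the mitochondrial genes was wide, with an SE of 0.35 for mt-Nd1 and 0.47 for mt-Co1, so differences of the size of their own values (-0.51 and -0.52) were not detectable at this number of libraries.

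The difference between the recovery changes of the genotypes was tested as an interaction. It was called in 7 members, all with the lower change in KO, where 2.36% of all genes were called in that direction and 2.89% in the other (5.25% in all). An unadjusted p below 0.05 was reached by 31 members, against 20.7% of all genes. The count ranged from 3 to 18 with each library left out, and moved by over 1.5 times for every library but KO-recovery replicate 2. Ndufa4 rose in WT (0.65 ± 0.08, edgeR adjusted p = 6.57e-06) and was -0.13 ± 0.08 in KO, not called, a difference of -0.78 ± 0.11 (edgeR adjusted p = 0.00134). Ndufa6 fell in both, with changes of -0.28 ± 0.08 and -1.03 ± 0.08, a difference of -0.76 ± 0.12 (edgeR adjusted p = 0.00210). These 2 calls were kept in all 20 alternatives. Uqcrq fell further in KO (-1.15 ± 0.25, edgeR adjusted p = 0.0221), and Cox7a2l rose in WT (0.30) and fell in KO (-0.28), a difference of -0.58 ± 0.13 (edgeR adjusted p = 0.0157). The WT rise of Cox7a2l was lost without WT-recovery replicate 1 (0.24, adjusted p = 0.0507), its KO fall in 3 of 21 alternatives, and its interaction in 2 of 20, namely without WT-OGD replicate 3 (adjusted p = 0.0581) and in the fit with 1 KO-recovery library. Ndufc1 (-0.80 ± 0.20), Ndufa2 (-0.72 ± 0.19) and Ndufb10 (-0.60 ± 0.17, chosen after its values were seen) had adjusted p-values of 0.0285, 0.0393 and 0.0484 by edgeR. Those of Uqcrq, Ndufc1, Ndufa2 and Ndufb10 were lost in 7, 10, 13 and 13 of 20 alternatives. Ndufa2 overlaps Tmco6 on the opposite strand by 66 bases of exon. The interaction median was -0.20 over nuclear and -0.49 over mitochondrial members, the latter 0.20 without WT-recovery replicate 1. Spearman's rho of the interaction with coding length was 0.43 over the 90 nuclear members and 0.21 over 14155 genes, given as a description.

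**Figure D5:**
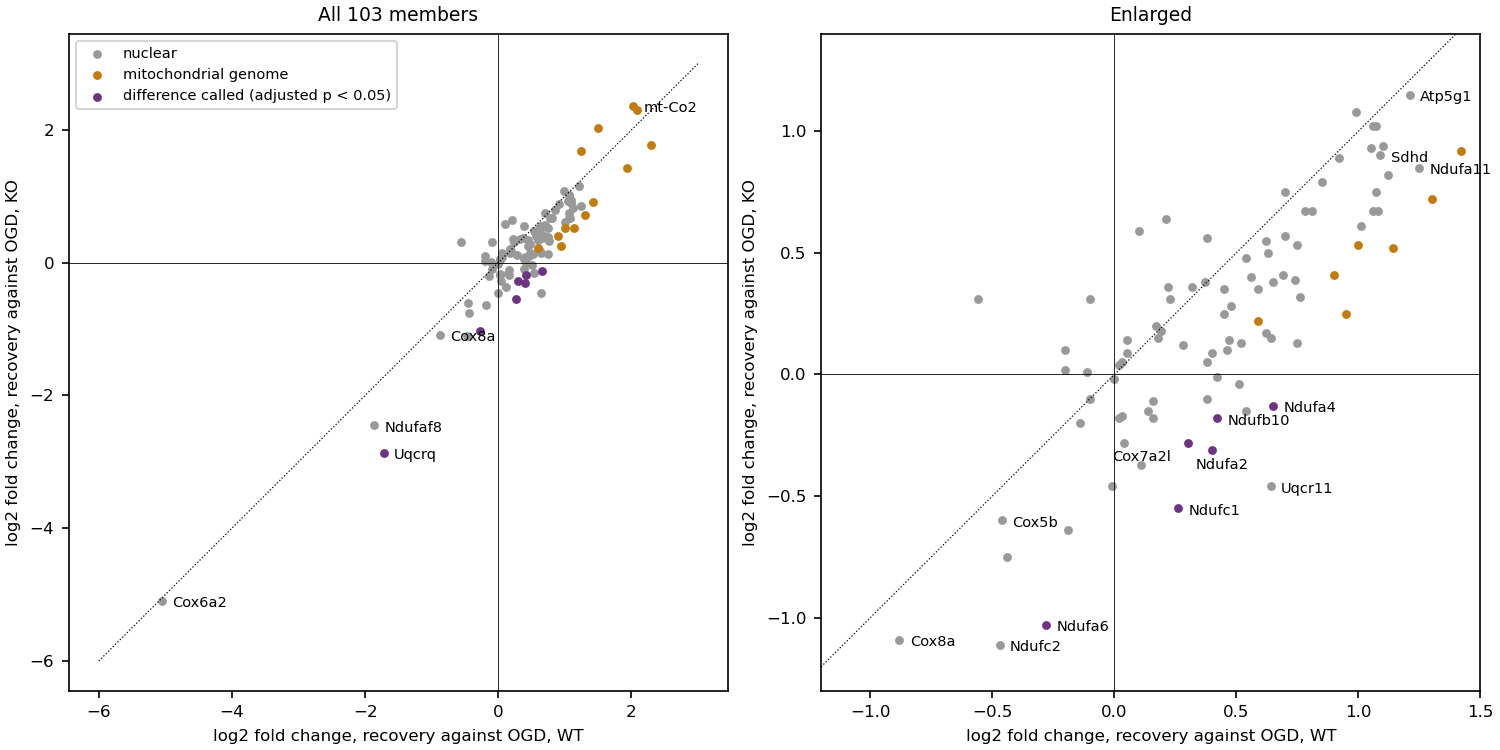
Log2 fold change from OGD to recovery in WT (horizontal) and KO (vertical) for all 103 members, with the crowded region enlarged on the right and a dotted line at equal change. The 7 members with a called difference (purple) all lie below the line, and Cox6a2 falls by about as much in WT (-5.05) as in KO (-5.10).

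Genes around the chain were read from 9 lists, whose counts stand against 26.9% of all genes higher and 29.9% lower in WT, and 29.3% and 29.6% in KO. Of 8 further subunits and partners outside the symbol rule, all 8 rose in WT and 6 (75%) in KO. Cyc1, the cytochrome c1 of complex III, rose by 0.35 ± 0.07 and 0.23 ± 0.07, and Cycs, cytochrome c, by 0.78 ± 0.13 and 0.59 ± 0.13. Higd2a, a factor of complex IV, rose by 0.97 ± 0.10 in WT and 0.44 ± 0.10 in KO, with an interaction of -0.53 ± 0.14 (edgeR adjusted p = 0.0373), and Dmac1, which helps to assemble complex I, had an interaction of -0.63 ± 0.16 (edgeR adjusted p = 0.0363). Complex IV and V assembly factors rose in 5 and fell in 6 of 24 in WT, and rose in 6 and fell in 8 in KO, shares of 20.8% to 33.3% that lie near those of all genes. Cox17, the copper chaperone of complex IV, measured 21.4 to 29.8 CPM after OGD, 11.2 to 17.3 CPM in WT-recovery and 7.98 to 11.4 CPM in KO-recovery, with an interaction of -0.87 ± 0.22 (edgeR adjusted p = 0.0329). Of 9 complex I assembly factors outside the symbol rule, 1 rose and 1 fell in each genotype, and Tmem126b, a part of the complex I intermediate assembly machinery, rose by 1.21 ± 0.09 in WT and 1.30 ± 0.09 in KO. Of 10 for complexes II and III, 4 rose and 0 fell in WT, and 4 rose and 2 fell in KO, the rises being 40% in each.

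Among genes that maintain and transcribe the mitochondrial genome, 2 of 17 were higher and 7 lower in WT, and 2 were higher and 9 lower in KO (11.8% higher in each, 41.2% and 52.9% lower). Lonp1, the mitochondrial protease that degrades TFAM, measured 134 to 178 CPM after OGD and 48.2 to 62.3 CPM after recovery (-1.46 ± 0.09 and -1.44 ± 0.09, both called by edgeR). Mgme1, a mitochondrial exonuclease, fell by 1.25 ± 0.09 in WT and fell by 1.14 ± 0.09 in KO, and Polg2, the accessory subunit of the mitochondrial DNA polymerase, rose by 1.11 ± 0.12 and 1.23 ± 0.12. Coenzyme Q synthesis had 0 higher and 4 lower of 13 in WT and 2 higher and 5 lower in KO (30.8% and 38.5% lower). In the citrate cycle and pyruvate dehydrogenase list, 11 of 21 rose (52.4%) and 6 fell (28.6%) in each genotype, with fumarase Fh1 at 0.73 ± 0.08 and 0.83 ± 0.08 and the pyruvate dehydrogenase subunit Pdhb at -0.89 ± 0.10 and -1.02 ± 0.10. Pdk4 of this list was lower in KO than in WT after OGD (-2.22 ± 0.54, edgeR adjusted p = 0.0202). After recovery it was called higher in KO, and Pdha1 was called lower. The interaction of Pdk4 was 5.29 ± 1.07 (edgeR adjusted p = 0.0112), and the part of the muscle transcripts in it was not tested. Among regulators, 1 of 10 rose and 5 (50%) fell in WT, and 1 rose and 6 (60%) fell in KO. Ppargc1b (PGC-1beta), a coactivator of respiratory genes, rose by 0.73 ± 0.16 and 1.39 ± 0.16. After recovery, Ppargc1b and Pprc1 were called higher in KO than in WT by edgeR. Ppargc1a (PGC-1alpha) was low and lower in KO, at 0.0986 to 0.308 CPM against 0.951 to 1.39 CPM after OGD and 0.347 to 0.490 CPM against 1.14 to 2.62 CPM after recovery (-2.24 ± 0.39 and -2.08 ± 0.43, both called by edgeR), beside the lower astrocyte and neuronal markers of the KO groups. Summed neuronal markers were 7.16 to 13.1 CPM against 22.5 to 34.9 CPM after OGD and 15.7 to 25.8 CPM against 75.7 to 91.2 CPM after recovery, and the part of both lists in this was not tested. Of the 7 carriers, porins and the uncoupling protein, 2 rose and 1 fell in WT and 1 rose and 1 fell in KO (14.3% to 28.6%), with Ucp2 at 1.19 ± 0.10 and 0.96 ± 0.10.

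Promoters were read because 41 members rose together in both genotypes. Sequences from 250 bases before to 50 after the start (RefSeq, GRCm38.p6) were matched for 74 of the 90 nuclear members. Cores of factors known to drive respiratory genes were searched on both strands, and matches of different cores may overlap. The 10-base core of NRF1 (its letters are the first capitals in each of the first 3 sequences below, any base being allowed at the sixth) occurred in 19 of the 74 (25.7%), in 10.7% of 11092 tested genes and in 5.19% of all 27025 genes in the table. The ETS core CCGGAAG, bound by GABP, occurred in 18 (24.3%), against 18.7% and 9.93%. The 10-base YY1 core occurred in 6 (8.11%), against 2.19% and 0.995%, and the ERR site TCAAGGTCA in 2 (2.7%), against 0.316% and 0.466%. Of the 29 matched members higher in both genotypes, 10 held the NRF1 core, and of the other 45, 9 did. The 250 bases before the start are shown for the 3 members with the largest WT rise among those higher in both genotypes that hold the NRF1 core there, Ndufa11 (chr17:56717512-56717761, plus strand), Atp5k (chr5:108434400-108434649, minus strand, subunit e of complex V) and Sdhd (chr9:50603850-50604099, minus strand), and for Ndufa4 (chr6:11907451-11907700, minus strand), the member with the smallest interaction p, which holds none of the 4 cores in this window. Capitals mark the NRF1 core and, in Sdhd, an ETS core on the opposite strand.
Ndufa11: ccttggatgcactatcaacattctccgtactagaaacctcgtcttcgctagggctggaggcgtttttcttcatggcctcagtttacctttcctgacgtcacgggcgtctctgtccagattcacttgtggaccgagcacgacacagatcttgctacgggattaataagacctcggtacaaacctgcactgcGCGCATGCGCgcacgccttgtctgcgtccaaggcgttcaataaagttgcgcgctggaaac
Atp5k: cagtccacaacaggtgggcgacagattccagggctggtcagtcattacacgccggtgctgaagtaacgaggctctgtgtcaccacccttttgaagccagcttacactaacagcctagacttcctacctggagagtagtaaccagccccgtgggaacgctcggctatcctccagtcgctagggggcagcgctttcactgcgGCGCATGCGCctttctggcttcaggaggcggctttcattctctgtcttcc
Sdhd: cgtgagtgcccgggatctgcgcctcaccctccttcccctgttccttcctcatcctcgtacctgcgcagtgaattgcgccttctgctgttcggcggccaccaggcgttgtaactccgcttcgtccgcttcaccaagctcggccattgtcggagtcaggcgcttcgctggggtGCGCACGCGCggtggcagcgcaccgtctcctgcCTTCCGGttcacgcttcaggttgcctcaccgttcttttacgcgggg
Ndufa4: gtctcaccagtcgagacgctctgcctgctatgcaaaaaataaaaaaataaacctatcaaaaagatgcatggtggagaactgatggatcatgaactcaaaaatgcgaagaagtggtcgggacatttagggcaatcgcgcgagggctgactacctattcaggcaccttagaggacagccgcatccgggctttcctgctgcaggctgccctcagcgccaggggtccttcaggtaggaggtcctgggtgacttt
A match is a description of these letters and not evidence of binding. Atp5k rose by 1.10 ± 0.15 in WT and 0.94 ± 0.15 in KO.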

How the data were processed

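The authors deposited raw counts per gene for 12 libraries of sorted, cultured microglia, made with a stranded total RNA kit per the labels' protocols. HISAT2, featureCounts and GRCm38 were used per the submitters' processing notes, and versions, strand setting and multi-mapping rules are not given in the sources used here. Of 55421 identifiers, 55240 matched GENCODE M21.

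Counts were fitted in R 4.3.3 with edgeR 4.0.16 (filterByExpr, TMM, robust glmQLFit over all 12 libraries with 1 mean per group, glmQLFTest). P-values were Benjamini-Hochberg adjusted over 18842 genes and called below 0.05. SEs were taken as the absolute log2 change divided by the square root of F. The fit was tested on simulated data, but the outcome is not given here, so no error rate for these 12 libraries follows from it. Replicates of a group differed by 6.66 to 60.2 chi-square units per degree of freedom, so each library counted as 1 sample.

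Members, lists and comparisons were chosen with earlier results of these data known. Named genes were the mitochondrial genes, the isoforms of complexes IV and V, complex II, up to 3 called members per complex, direction and contrast by adjusted p, and up to 2 called genes per list, direction and contrast. Alternatives were DESeq2 1.42.0, other size factors, no filter, a replicate block, thinned counts, nuclear scaling, leaving out each library or both of highest mitochondrial share, the compared libraries alone and, chosen after seeing the data, leaving out KO-recovery replicates 1 and 3.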

Additional observations from a re-analysis of the deposited data

Results flagged for a closer look

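In 7 members the change from OGD to recovery differed between the genotypes by the interaction term of the edgeR fit, with adjusted p-values over all genes. The differences, KO less WT on the log2 scale, were -0.78 for Ndufa4, -0.76 for Ndufa6, -0.58 for Cox7a2l, -1.15 for Uqcrq, -0.80 for Ndufc1, -0.72 for Ndufa2 and -0.60 for Ndufb10. Across the 20 alternatives the adjusted p of Ndufa4 reached at most 0.00662 and that of Ndufa6 at most 0.0173, the latter in a fit that leaves out KO-recovery replicates 1 and 3. That of Cox7a2l was 0.0810 in the same fit and 0.0581 without WT-OGD replicate 3. The fit leaves 1 KO-recovery library, whose spread is assumed to be like that of the other groups. The muscle markers, at 106 and 116 CPM in KO-recovery replicates 1 and 3, and the Xist difference, which parts WT-recovery from WT-OGD as well as from KO-recovery, stand beside all 7, and their part was not tested.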

How the results depend on the processing

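Of 10705 values of single members under an alternative, 10205 stayed on the same side of the threshold, and no called value changed sign. Calls kept in every alternative numbered 52 of 62 higher and 6 of 8 lower for recovery in WT, 33 of 45 and 9 of 14 in KO, 6 of 21 lower for KO against WT after recovery, 2 of 7 for the interaction and 0 of 4 after OGD. Leaving out each library in turn gave 56 to 65 higher and 6 to 8 lower members for recovery in WT, 34 to 45 and 11 to 17 in KO, 0 to 4 and 0 to 1 for KO against WT after OGD, 0 to 2 and 9 to 25 after recovery, and 3 to 18 lower for the interaction. The mitochondrial median ranged from 0.62 to 1.58 for recovery in WT, from -0.82 to 0.22 for KO against WT after recovery and from -0.85 to 0.20 for the interaction, the upper end of the last 2 and the lower end of the first without WT-recovery replicate 1. The nuclear median for recovery in KO ranged from 0.12 to 0.21.

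Leaving out KO-recovery replicates 1 and 3, an alternative chosen after seeing the data, leaves 1 KO-recovery library, which is assumed to vary like the other groups, so the calls are weakly supported. There, KO against WT after recovery gave 4 higher and 12 lower members with medians of -0.02 (nuclear) and 0.01 (mitochondrial), recovery in KO had medians of 0.22 and 1.43, and the interaction gave 1 higher member with medians of -0.08 and 0.07. DESeq2 gave 5 higher members for KO against WT after OGD and 16 lower for the interaction. Without the low-count filter, 2 members were higher for KO against WT after recovery, 1 was higher and 22 lower for the interaction, and the nuclear median for recovery in KO was 0.08. Without both libraries of highest mitochondrial share, 1 member was higher for KO against WT after recovery and the mitochondrial median for recovery in WT was 0.65. Scaling on nuclear genes gave 13 lower members for the interaction and a nuclear median of 0.46 for recovery in WT, thinned counts gave 4 lower for the interaction, and a fit of only the libraries compared gave 11 lower for KO against WT after recovery. The cause was not tested. With the replicate block, 1 member was higher for KO against WT after OGD and 4 lower for the interaction. Deviations of same-numbered libraries from their group means were weakly correlated (-0.12 to 0.16). With 3 libraries per group, this cannot decide whether the numbers pair the samples.

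With 3 libraries per group, and recovery libraries of fewer counts, members under about 1 CPM and the mitochondrial genes carry wide errors. The 6 low mitochondrial genes and overlapping genes are limited by unstated counting rules. Of the 90 nuclear members, 32 overlap another gene and 53 share a 50-base stretch with another transcript.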
